A study of Mus musculus with 20 samples.

Results

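The 10 genes described here encode the tubulin building blocks of microtubules and a deacetylase that, like Sirt2, removes acetyl groups from them. They are the α-tubulins Tuba1a, Tuba1b, Tuba1c and Tuba4a, the β-tubulins Tubb2a, Tubb2b, Tubb4b, Tubb5 and Tubb6, and Hdac6, and each was found by its symbol among 45306 gene rows. All 10 passed the filter on low counts, as did 15616 genes in all. The RNA came from mouse liver, in 4 groups of 5 samples on a C57BL/6 background. Control mice were wild-type and unexposed, and cold exposure (CE) mice were wild-type and spent 3 h per day at 4 °C for 3 weeks. The Sirt2-/- mice carried a whole-body CRISPR-Cas9 knockout aimed at exons 5 to 7 of Sirt2 and were unexposed, and the Sirt2-/-/CE mice carried the same knockout and underwent the same cold exposure. All groups were housed at 24 °C and were 5 weeks old when assigned. The labels number the samples 1 to 20 without stating that each is a separate animal. They are called mice here, and the p-values measure the spread between these samples, which may be technical.

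Microtubules are hollow polymers of α- and β-tubulin dimers. In hepatocytes they carry vesicles and secreted proteins, and they form the spindle when cells divide. Vertebrates have several α- and β-tubulin genes, called isotypes, whose proteins are very similar and co-assemble. Acetylation of lysine 40 of α-tubulin, which faces the inside of the microtubule, is added by the enzyme Atat1 and removed by Hdac6, a zinc-dependent cytoplasmic deacetylase, and by Sirt2, an NAD-dependent one. Cells also adjust tubulin mRNA to the pool of free dimers. Free tubulin promotes decay of mRNAs under translation whose protein begins with the tubulin signature of 4 residues, a control known as tubulin autoregulation. The measurements here are of mRNA, so neither acetylation nor enzyme activity was measured.

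The reference coding sequences of 8 tubulins are shown at their start, and those of the α-tubulins also around lysine 40. The first 4 codons, in capitals, spell the autoregulation signature (MREC in α-tubulins, MREI in β-tubulins) and are shown with the 4 codons that follow, 5′ to 3′, from the GRCm38 annotation.
Tuba1a: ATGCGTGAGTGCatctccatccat
Tuba1b: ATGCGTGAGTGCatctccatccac
Tuba1c: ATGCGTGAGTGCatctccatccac
Tuba4a: ATGCGCGAGTGCatttcagtccat
Tubb2a: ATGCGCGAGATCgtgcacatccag
Tubb2b: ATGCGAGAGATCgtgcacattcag
Tubb4b: ATGAGGGAGATCgtgcacctgcag
Tubb5: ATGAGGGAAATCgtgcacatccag
The α-tubulins have a lysine at codon 40, the residue that Atat1, Hdac6 and Sirt2 act on. Its codon, in capitals, is shown with 3 codons on each side.
Tuba1a, Tuba1b and Tuba1c: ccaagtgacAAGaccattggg
Tuba4a: cccagcgatAAGaccattggt
Tuba1a, Tuba1b and Tuba1c were identical over this window. Tuba1a and Tuba1b were 98.3% identical over the coding sequence and 99.6% identical as proteins, with 2 residues different. Tubb2a and Tubb2b were 96.5% identical over the coding sequence, also with 2 residues different.

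That similarity limits which gene a read can be assigned to. Of all 100-base windows along the main transcript, 65.1% of those of Tuba1a, 69.5% of Tuba1b, 53.4% of Tuba1c, 36.9% of Tubb2a, 27.7% of Tubb2b and 29.2% of Tubb4b occurred exactly in another annotated gene. No such window was found for Tuba4a, Tubb5, Tubb6 or Hdac6. How reads that fit several genes were assigned is not given in the sources used here, so the split between Tuba1a, Tuba1b and Tuba1c, and between Tubb2a and Tubb2b, is uncertain. The α-tubulin genes Tuba1b (chr15:98931425-98934565), Tuba1a (chr15:98949837-98953703) and Tuba1c (chr15:99029891-99038110) lie in a cluster on chromosome 15, and Tubb2a (chr13:34074274-34078007) and Tubb2b (chr13:34126748-34130466) are neighbours on chromosome 13. Tuba4a (chr1:75214228-75219865) shares 1379 exon bases with the gene Stk16 on the other strand. Stk16 held 24.1% to 45.9% of the sum of both genes' counts. Without stated strand information, reads from these genes cannot be told apart, and the Tuba4a values carry that limit. The remaining members are Tubb4b (chr2:25222160-25224702), Tubb5 (chr17:35833921-35838306), Tubb6 (chr18:67390717-67402749) and Hdac6 (chrX:7930120-7947889).

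The libraries held 35499796 to 53917339 counts. Levels between samples are given in CPM (counts scaled to library depth by the trimmed mean of M values), and levels between genes in FPKM (fragments per kilobase of transcript and library depth), which corrects for length. The targeted gene, Sirt2, was at 42.4, 41.6, 44.5, 41.3 and 41.5 CPM in the 5 Control mice and at 17.3, 21.3, 26.6, 27.5 and 16.9 CPM in the 5 Sirt2-/- mice. It was at 40.2 to 56.2 CPM in CE and 18.97 to 27.5 CPM in Sirt2-/-/CE mice. The genotypes did not overlap, and Sirt2 fell by 1.03 on the log2 scale (SE 0.10, adjusted p = 5.75e-05, genotype averaged over both treatments). This p, like those that follow, came from edgeR's quasi-likelihood test with Benjamini-Hochberg adjustment over all 15616 genes, and a gene was called at an adjusted p under 0.05. Hepatocyte markers were high in every mouse, with a summed level of 40854 to 77502 FPKM over 6 genes.

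By FPKM over all 20 mice, the 9 tubulins fell into an abundant and a scarce set. Tubb4b was highest at 64.9 ± 18.8 FPKM (SD, n = 20), followed by Tuba4a at 59.2 ± 13.8, Tuba1c at 49.1 ± 15.7, Tuba1b at 33.0 ± 8.73, Tubb2a at 29.9 ± 20.6 and Tubb5 at 19.97 ± 5.84. Tuba1a at 7.31 ± 2.30, Tubb6 at 5.31 ± 0.920 and Tubb2b at 2.22 ± 2.48 FPKM were scarce. Hdac6 lay among the scarce genes at 3.03 ± 0.496 FPKM. Neighbours in this order, Hdac6 included, differed by less than the larger of their SDs, except for the step from Tubb5 to Tuba1a, the step from Tuba1c to Tuba1b and the step from Tubb6 to Hdac6.

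edgeR called none of the 10 members in any of 7 comparisons, and nearly all tubulins had positive log2 fold changes in CE and in Sirt2-/- against Control mice. In Sirt2-/- against Control mice, 8 of 9 tubulins were higher, with a median log2 fold change of 0.39 against 0.02 over all genes tested, of which 51.7% were higher. In CE against Control mice, 9 of 9 were higher, with a median of 0.36 against -0.01 over all genes, of which 49.0% were higher. These counts include values near 0, with Tuba1a at 0.056 in Sirt2-/- and 0.022 in CE mice (SE 0.285 each) and Tubb6 at 0.109 and 0.084 (SE 0.164 each). Mean log2 CPM of Tuba1a was 3.50 in Control, 3.48 in CE and 3.46 in Sirt2-/- mice. The tubulins vary together, some share reads, and both comparisons use the same Control mice, so the counts are not of independent genes. Tubb2a, a β-tubulin, stood furthest from its Control level among the abundant tubulins in both comparisons. Hdac6 differed by 0.09 and -0.07 on the log2 scale in these comparisons. In tissue RNA, more cells of a type and more RNA per cell cannot be told apart.

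**Figure D1:**
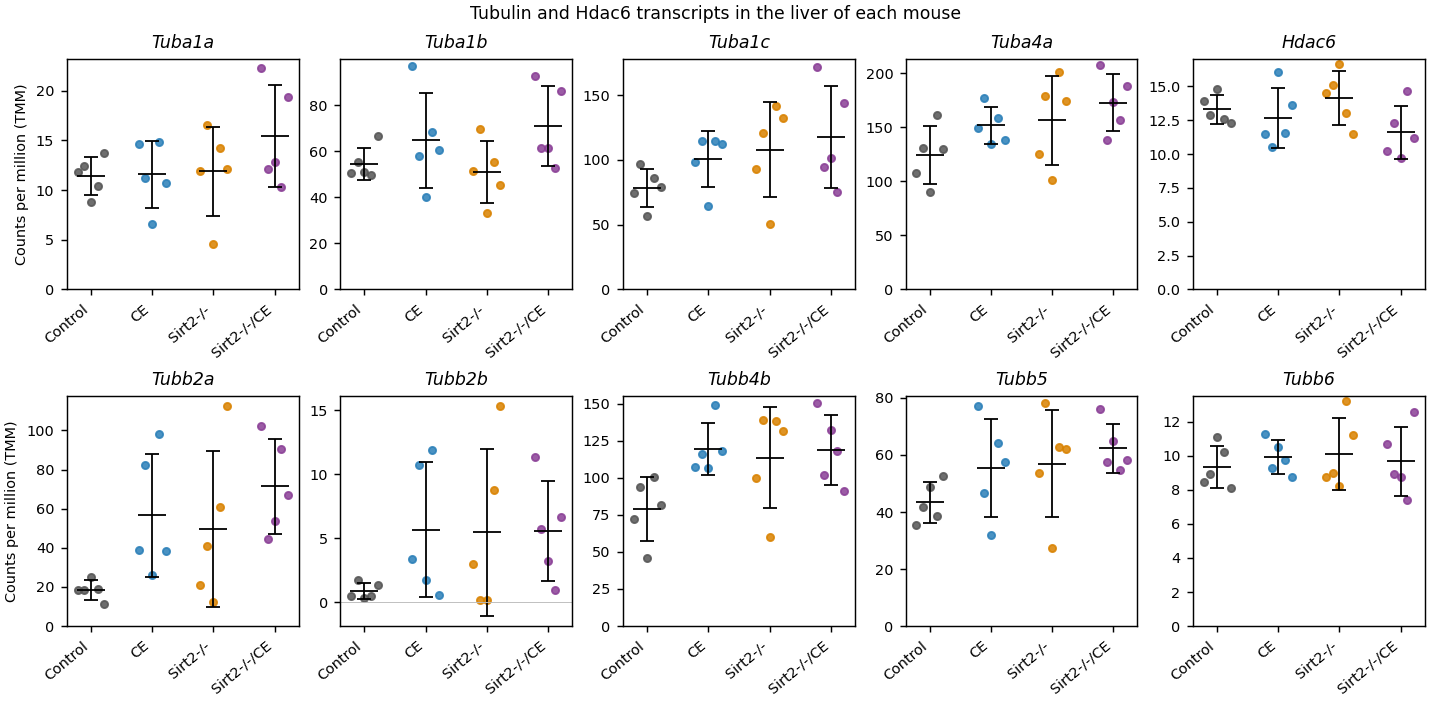
CPM of each of the 10 genes (vertical axes, linear, 1 panel per gene) in each mouse of the 4 groups (horizontal axis), with points for mice and bars for mean ± SD of 5 mice. Tubb2a lies at 11.2 to 25.3 CPM in Control mice and reaches 113 CPM in a Sirt2-/- mouse, while Hdac6 and Tubb6 stay within a narrow band.

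Counts of members at each threshold were read against the share of all tested genes that passed it. In Sirt2-/- against Control mice edgeR called 0 members and 0.89% of all genes. There, 3 members (Tubb2a, Tubb2b and Tubb4b, all higher) and 14.9% of all genes had an unadjusted p under 0.05. DESeq2 called 1 member and 3.89% of all genes in that comparison, and limma voom 0 members and 5.8% of all genes. In CE against Control mice edgeR called 0 members and 0.0064% of all genes, and the same 3 members, again higher, and 10.7% of all genes had an unadjusted p under 0.05. DESeq2 called 1 member and 1.2% of all genes there, and limma voom 1 member and 3.46% of all genes. The single member called by these alternatives was Tubb2a in each case.

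With cold in both arms, Sirt2-/-/CE against CE, edgeR called 0 members and 0.0128% of all genes, with 0 members and 6.09% of all genes at an unadjusted p under 0.05. With the knockout in both arms, Sirt2-/-/CE against Sirt2-/-, edgeR called 0 members and 0% of all genes, with 1 member (Tuba1b, higher) and 7.25% of all genes at an unadjusted p under 0.05. Averaged over treatments, the genotype comparison had 0 members and 0.186% of all genes called, and 1 member (Tubb2a, higher) and 13.8% of all genes at an unadjusted p under 0.05. The cold comparison averaged over genotypes had 0 members and 0% of all genes called, and 3 members (Tubb2a, Tuba1b and Tubb4b, all higher) and 9.48% of all genes at an unadjusted p under 0.05. The interaction of genotype and cold had 0 members and 0% of all genes called, and 0 members and 8.34% of all genes at an unadjusted p under 0.05. DESeq2 and limma voom called 0 members in these 5 comparisons, where they called 0.0448% to 2.03% and 0% to 1.68% of all genes.

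Tubb2a (also a main neuronal isotype) was at 18.4, 18.3, 25.3, 18.7 and 11.2 CPM in the 5 Control mice. The CE mice had 38.6, 82.1, 25.9, 98.2 and 38.2 CPM, each above every Control mouse. Tubb2a and Tubb4b were the 2 members without overlap between these groups, where 3.04% of all genes did not overlap. The Sirt2-/- mice had 21.0, 41.1, 12.5, 61.0 and 113 CPM of Tubb2a and overlapped the Control range, and the Sirt2-/-/CE mice had 102, 44.5, 53.7, 90.3 and 67.0 CPM. All 10 cold-exposed mice and 3 of 5 Sirt2-/- mice were thus above the highest Control mouse.

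Against Control, the log2 fold change of Tubb2a was 1.62 (SE 0.47, unadjusted p = 0.0024, adjusted p = 0.202) in CE mice and 1.43 (SE 0.47, unadjusted p = 0.00588, adjusted p = 0.139) in Sirt2-/- mice. DESeq2 gave adjusted p = 0.0328 for CE and 0.0356 for Sirt2-/- mice, and limma voom 0.0294 and 0.188. Over all alternatives the adjusted p for Tubb2a ranged from 0.0294 to 0.427 in CE and from 0.0356 to 0.997 in Sirt2-/- mice. The Sirt2-/- value turned on single mice. Without replicate 13, the lowest Sirt2-/- mouse, it was 1.68 with an edgeR adjusted p = 0.0439, and without replicate 15, the highest, it was 0.88 with an adjusted p = 0.486. Sirt2-/-/CE mice differed from CE mice by 0.34 (SE 0.46, adjusted p = 0.969) and from Sirt2-/- mice by 0.53 (SE 0.46, adjusted p = 0.868). Both values also turned on single mice. The first ranged from 0.16 (without CE replicate 8) to 0.63 (without CE replicate 9), and the second from 0.28 (without Sirt2-/- replicate 13) to 1.07 (without Sirt2-/- replicate 15). The interaction of genotype and cold was -1.10 (SE 0.65, unadjusted p = 0.105, adjusted p = 0.683), and -1.34 (without Sirt2-/- replicate 13) to -0.56 (without Sirt2-/- replicate 15) with 1 mouse left out, so the data did not show that cold acted differently in the genotypes. Since CE and Sirt2-/- were set against the same Control mice, their values are not independent of each other.

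Tubb2b, the close paralogue of Tubb2a, was scarce and very uneven. Control mice had 0.490, 1.70, 0.296, 0.516 and 1.32 CPM, CE mice 3.36, 10.7, 1.73, 11.9 and 0.562 CPM. The Sirt2-/- mice had 2.97, 0.205, 0.137, 8.77 and 15.3 CPM and the Sirt2-/-/CE mice 11.3, 5.70, 3.21, 0.917 and 6.69 CPM. Every group overlapped Control. The log2 fold change was 2.71 (SE 1.01, unadjusted p = 0.0143, adjusted p = 0.323) in CE and 2.66 (SE 1.01, unadjusted p = 0.0157, adjusted p = 0.21) in Sirt2-/- against Control mice. Over all alternatives these values ranged from 1.43 to 3.11 in CE and from 0.12 to 3.06 in Sirt2-/- mice. Of the Sirt2-/- mice, 2 were at 8.77 and 15.3 CPM and the other 3 at 2.97 CPM or less. Summing the counts of Tubb2a and Tubb2b, which avoids the split of shared reads, gave 1.69 in CE and 1.52 in Sirt2-/- against Control mice.

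Tubb4b, the most abundant tubulin by FPKM and a broadly expressed isotype, was at 71.9, 93.7, 45.7, 101 and 81.6 CPM in Control mice. CE mice had 107, 116, 107, 149 and 118 CPM, again without overlap. Sirt2-/- mice had 100.007, 139, 59.8, 138 and 131 CPM and Sirt2-/-/CE mice 150.1, 102, 132, 118 and 91.0 CPM. Replicates 11 and 13 were the Sirt2-/- mice inside the Control range. The log2 fold change against Control was 0.60 (SE 0.22, unadjusted p = 0.0139, adjusted p = 0.323) in CE and 0.53 (SE 0.22, unadjusted p = 0.0276, adjusted p = 0.261) in Sirt2-/- mice, and Sirt2-/-/CE mice differed from CE mice by -0.01.

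The other β-tubulins, Tubb5 and Tubb6, overlapped in each of the 4 comparisons between pairs of groups. Tubb5, a broadly expressed isotype, was at 43.4 ± 7.14 CPM (SD, n = 5) in Control, 55.6 ± 17.2 in CE, 56.9 ± 18.8 in Sirt2-/- and 62.3 ± 8.63 in Sirt2-/-/CE mice. Its log2 fold change in Sirt2-/- against Control mice was 0.39 (SE 0.23, adjusted p = 0.455), and 0.25 without Sirt2-/- replicate 12 to 0.57 without replicate 13. Tubb6 was the steadiest tubulin, at 9.36 ± 1.24, 9.92 ± 1.00, 10.1 ± 2.10 and 9.67 ± 2.01 CPM in the same order of groups, and 2 of the comparisons between pairs of groups had it slightly higher and 2 slightly lower.

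**Figure D2:**
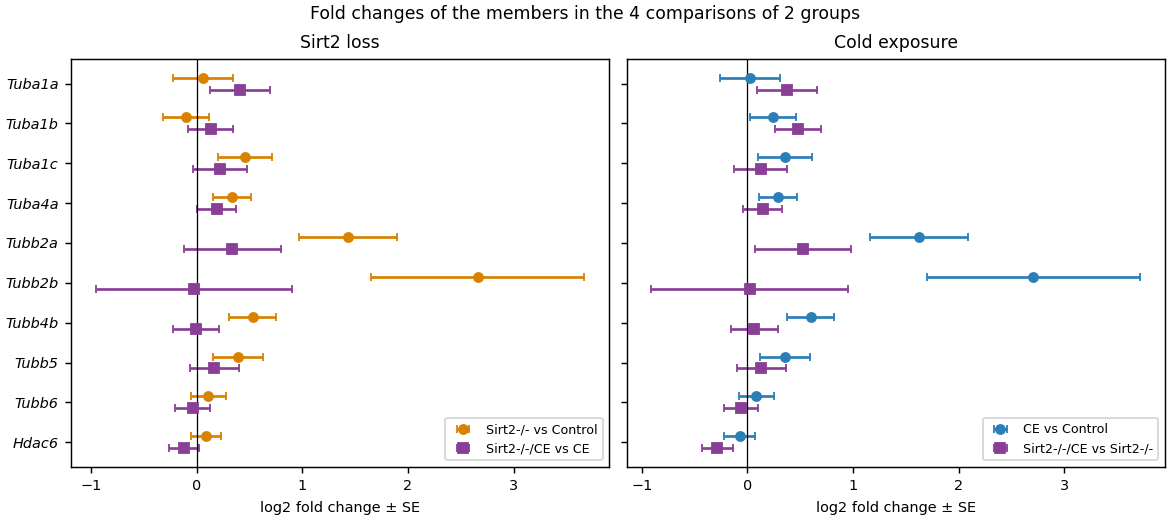
Log2 fold change ± SE (edgeR, horizontal axis) of each of the 10 genes (rows) in the 4 comparisons between pairs of groups of 5 mice. Tubb2a and Tubb2b lie furthest from 0 in the comparisons of CE and Sirt2-/- with Control mice, and no value was called.

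Among α-tubulins, the 2 most abundant, Tuba4a and Tuba1c, had higher means than Control in every other group. Tuba4a was at 108, 131, 89.8, 161 and 130.4 CPM in Control mice and at 126, 179, 102, 202 and 175 CPM in Sirt2-/- mice, which overlapped. Its group mean was 124 ± 26.9 CPM (SD, n = 5) in Control, 152 ± 17.2 in CE, 157 ± 41.3 in Sirt2-/- and 173 ± 26.7 in Sirt2-/-/CE mice. In Sirt2-/- against Control mice the log2 fold change was 0.34 (SE 0.18, unadjusted p = 0.0782, adjusted p = 0.398). Tuba1c was at 78.5 ± 14.7 CPM in Control, 101 ± 21.6 in CE, 108 ± 36.6 in Sirt2-/- and 117 ± 39.4 in Sirt2-/-/CE mice. Its log2 fold change in Sirt2-/- against Control mice was 0.46 (SE 0.26, unadjusted p = 0.0889, adjusted p = 0.419).

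Tuba1b had similar means in unexposed mice of both genotypes. It was at 54.6 ± 6.91 CPM in Control and 51.0 ± 13.4 in Sirt2-/- mice, and at 64.7 ± 20.7 in CE and 70.8 ± 17.4 in Sirt2-/-/CE mice (SD, n = 5 each). The 5 Sirt2-/-/CE mice had 92.6, 61.5, 61.5, 52.6 and 86.0 CPM and the 5 Sirt2-/- mice 51.3, 69.8, 33.2, 55.3 and 45.2 CPM. The groups overlapped, and the log2 fold change was 0.47 (SE 0.22, unadjusted p = 0.0403, adjusted p = 0.671). Averaged over genotypes, the cold difference of Tuba1b was 0.36 (SE 0.15, unadjusted p = 0.029, adjusted p = 0.472). Tuba1a was at 11.4 ± 1.91, 11.6 ± 3.39, 11.9 ± 4.49 and 15.4 ± 5.14 CPM in Control, CE, Sirt2-/- and Sirt2-/-/CE mice. With the counts of Tuba1a, Tuba1b and Tuba1c summed, the log2 fold change was 0.29 in CE and 0.24 in Sirt2-/- against Control mice.

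Hdac6 differed little between the groups. It was at 13.95, 12.9, 14.8, 12.6 and 12.3 CPM in Control mice and at 11.5, 10.5, 16.04, 11.5 and 13.6 CPM in CE mice. Sirt2-/- mice had 14.48, 15.1, 16.7, 13.02 and 11.5 CPM and Sirt2-/-/CE mice 10.2, 12.3, 9.74, 14.6 and 11.2 CPM. All 4 groups overlapped. The log2 fold change was 0.09 (SE 0.14, unadjusted p = 0.545, adjusted p = 0.828) in Sirt2-/- against Control mice and -0.28 (SE 0.14, unadjusted p = 0.0641, adjusted p = 0.707) in Sirt2-/-/CE against Sirt2-/- mice. Averaged over treatments, the genotype difference of Hdac6 was -0.02, and averaged over genotypes the cold difference was -0.18 (SE 0.10, adjusted p = 0.604). An mRNA difference of Hdac6 with loss of Sirt2, the other tubulin deacetylase, was therefore not detected. No member was without overlap in Sirt2-/- against Control, Sirt2-/-/CE against CE or Sirt2-/-/CE against Sirt2-/- mice, where 3.61%, 1.22% and 0.743% of all genes were.

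The composition of the tubulin mRNA pool was described as the share of each gene in the summed FPKM of the 9 tubulins, without a test. The sum itself was 196 ± 28.7 FPKM (SD, n = 5) in Control, 274 ± 63.1 in CE, 297 ± 103 in Sirt2-/- and 318 ± 38.6 in Sirt2-/-/CE mice. FPKM was scaled to library size and not by the trimmed mean of M values. Differences of this sum between groups therefore need not match those in CPM. Tuba1b, for one, was at 28.9 FPKM in Control and 30.0 FPKM in Sirt2-/- mice, against 54.6 and 51.0 CPM. α-Tubulins made up 60.7 ± 1.52% in Control mice, between 58.4% and 62.3%, and 53.1 ± 3.72% in CE mice, between 47.3% and 57.6%. The α-tubulin share was 54.6 ± 4.71% in Sirt2-/- mice, between 47.0% and 59.6%, and 54.1 ± 5.29% in Sirt2-/-/CE mice, between 46.7% and 61.6%. Both of these groups overlapped Control. The Tubb2a share was 5.69 ± 2.38% in Control, 11.4 ± 4.60% in CE, 9.85 ± 5.95% in Sirt2-/- and 13.5 ± 3.74% in Sirt2-/-/CE mice. Tubb4b held 22.9 ± 3.46%, 25.6 ± 3.66%, 25.0 ± 1.40% and 22.7 ± 3.76% in the same order, and the Tuba1b share was 14.96 ± 2.43% in Control and 10.7 ± 2.43% in Sirt2-/- mice. Computed from counts divided by exon length, Tuba4a held 19.6% in place of 23.8% in Control mice.

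**Figure D3:**
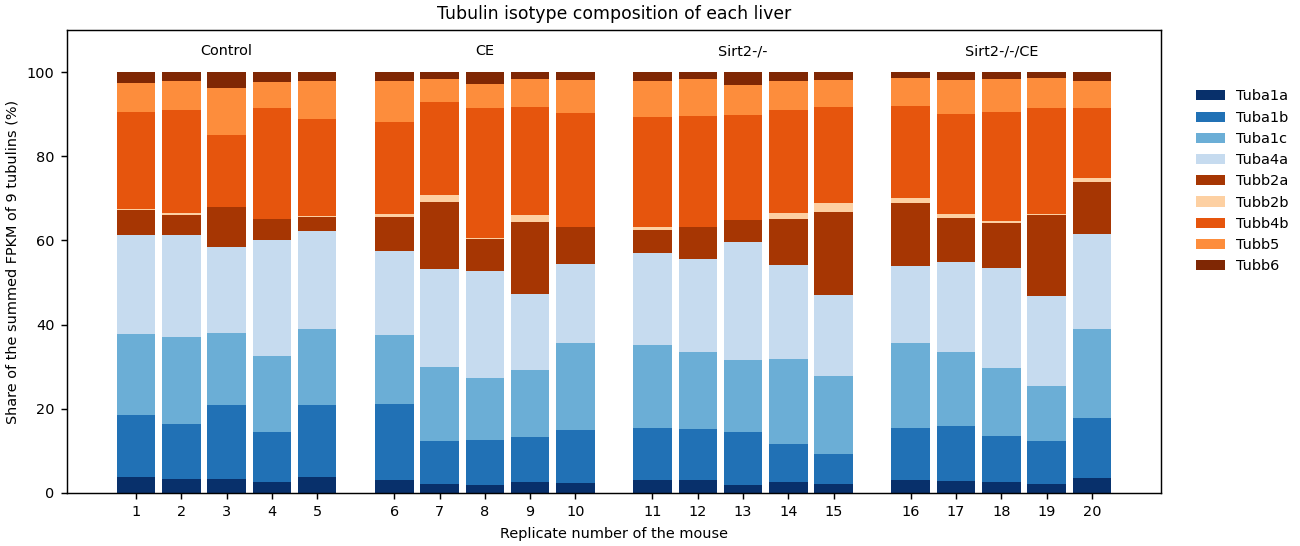
Share of each of 9 tubulin genes in their summed FPKM (vertical axis, percent, from 0 to the whole) in each of the 20 mice (stacked bars, grouped by condition). The α-tubulin share is 58.4% to 62.3% in Control, 47.3% to 57.6% in CE, 47.0% to 59.6% in Sirt2-/- and 46.7% to 61.6% in Sirt2-/-/CE mice. Tubb2a takes a larger share in most mice of the groups other than Control.

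The tubulins varied together from mouse to mouse. As log2 CPM over 20 mice, all 36 pairs of tubulins had a positive Pearson r, from 0.13 to 0.87 with a median of 0.62, as a description over libraries that share depth and scaling. Tuba1a and Tuba1b, which also share reads, had the highest. In replicate 13 (Sirt2-/-) all 9 tubulins were below their mean over 20 mice, by 1.20 on average on the log2 scale. In replicate 16 (Sirt2-/-/CE) none was below, and the average was 0.88 above. The 5 Control mice averaged from -0.72 to -0.24. Replicate 16 also had the steepest loss of long transcripts, with log2 CPM changing by -0.34 per doubling of transcript length over all genes against -0.17 to 0.18 in the other libraries. With each library's length and GC trend removed, edgeR again called 0 members in each comparison.

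**Figure D4:**
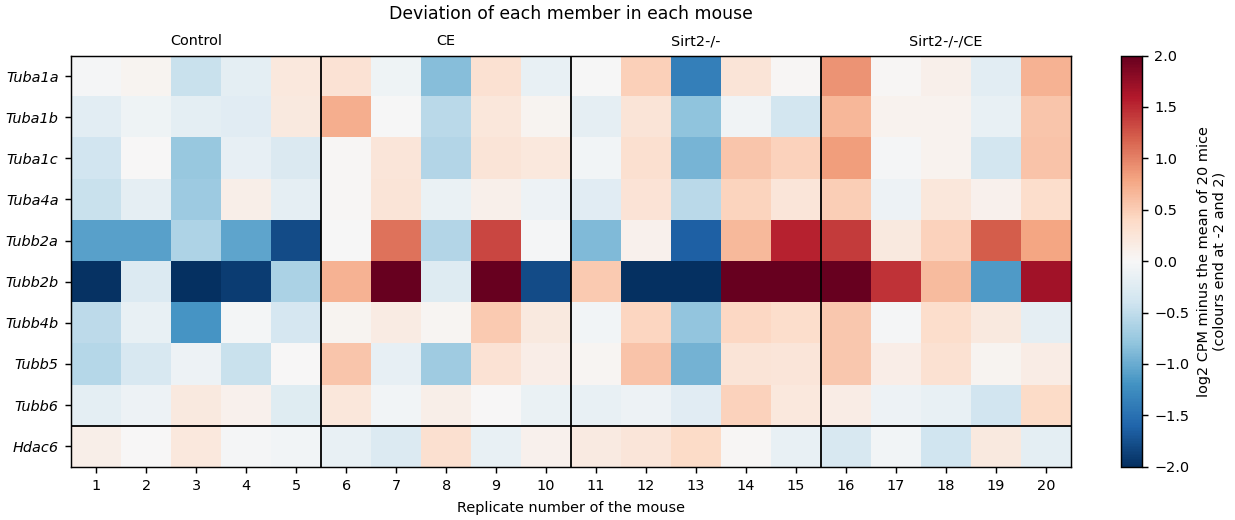
Log2 CPM of each of the 10 genes (rows) in each of the 20 mice (columns, grouped by condition) minus the gene's mean over all mice, with colours ending at -2 and 2. Replicate 13 is low and replicate 16 high across the 9 tubulins, and the Hdac6 row often has the opposite sign.

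Hdac6 ran against the tubulins. In each group the mouse with the most Hdac6 (replicates 3, 8, 13 and 19) was the lowest mouse of its group for 5, 7, 9 and 6 of 9 tubulins, and Tuba1a and Tuba1c were lowest there in all 4 groups. Control replicate 3 was also the highest of its group for 2 tubulins, Tubb2a and Tubb6. The mouse with the least Hdac6 (replicates 5, 7, 15 and 18) was the highest of its group for only 3, 1, 2 and 0 of 9 tubulins. Over 20 mice, r between Hdac6 and the 9 tubulins lay between -0.73 and -0.28, with a median of -0.63. Tubb2b gave the strongest relation, with r = -0.73 and Spearman's rho = -0.74 (permutation test, p = 0.00033, adjusted p = 0.00273 over the 9 relations). Tuba1c followed with r = -0.68 and rho = -0.64 (permutation test, adjusted p = 0.00273). These relations were read against all genes. An r with Hdac6 of at least 0.485 in size, that of the weakest of the 8 tubulins that passed, was held by 3.96% of 15615 genes, 1.71% negative and 2.25% positive. The permutations did not keep to groups, and within groups more genes matched most of the tubulins. The r of Tubb2b was matched in size by 0.0128% of genes over all mice and 0.0833% within groups, that of Tuba1c by 0.0961% and 0.128%, and that of Tuba1b by 0.275% and 5.78%. Within groups the shares were 1.06% for Tuba4a, 1.46% for Tuba1a, 4.69% for Tubb5, 6.19% each for Tubb2a and Tubb4b, and 21.5% for Tubb6. The tubulins vary together, so their relations are not independent of each other. Hdac6, at 4142 bases, has a longer main transcript than the tubulins, at 1598 to 2840 bases, and libraries differed in their length trend. The part of that trend in these relations was not tested. Over the family, adjusted permutation p-values for r were 0.00273 to 0.0331 for 8 tubulins and 0.233 for Tubb6, and those for rho were 0.00252 to 0.0378 for 7 of them, 0.133 for Tubb4b and 0.199 for Tubb6. Without replicates 13 and 18, which lay farthest from the Hdac6 median, r was -0.73 to -0.32, and within groups, after subtracting group means, it was -0.75 to -0.36. Over the 16 mice left without the 4 with reversed clock gene levels, described next, it was -0.76 to -0.24.

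Levels of the members were also set against clock genes, whose mRNA varies with the time of day. A clock score was the mean log2 CPM of the falling arm (Ciart, Dbp, Nr1d2, Per3, Tef) less the mean of the rising arm (Arntl, Clock, Npas2), which peak in opposite phases. The score was 2.46 to 6.64 in 16 mice and -3.21 to -1.25 in the other 4, which were CE replicate 9, Sirt2-/- replicates 14 and 15, and Sirt2-/-/CE replicate 19. None of the 4 was a Control mouse. Tubb2a was at 61.0 and 113 CPM in the Sirt2-/- mice with a score below 0 and at 12.5 to 41.1 CPM in the other 3. In CE and Sirt2-/-/CE mice it was at 98.2 and 90.3 CPM in the mouse below 0 and at 25.9 to 82.1 and 44.5 to 102 CPM in the other 4. The other members did not all share this order. Sirt2-/-/CE replicate 19 had the highest Hdac6 of its group, at 14.6 CPM, and the lowest Tuba1a, Tuba1b, Tuba1c, Tubb2b, Tubb5 and Tubb6, with Tubb2b at 0.917 CPM against 3.21 to 11.3 CPM in the other 4 mice. Its Tubb4b, at 118 CPM, lay within the 91.0 to 150.1 CPM of the others. Time of sampling is not given in the sources used here.

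Because the scores formed separate clusters, relations were computed over the 16 mice above 0. There Tubb2a had r = -0.83 and rho = -0.84 with the score (permutation test, p = 0.00014, adjusted p = 0.0007 over 10 relations). Without replicates 1 and 3, the farthest from the median score, r was -0.88, and within groups it was -0.57. Tuba4a had r = -0.83 and rho = -0.85 (permutation test, adjusted p = 0.0007, within groups -0.75). Tubb4b and Tuba1c each had r = -0.76, Tubb5 -0.62, Tuba1b -0.55 and Tubb2b -0.54, with adjusted permutation p-values of 0.001 to 0.0422. Within groups r was -0.60 for Tubb4b, -0.65 for Tuba1c, -0.47 for Tubb5, -0.44 for Tuba1b and -0.05 for Tubb2b. The permutations did not keep to groups, whose scores differed, at 4.61 to 6.64 in Control mice and 2.46 to 5.69 in the other 11. Of 15608 genes other than the clock genes, 12.1% had an r with the score of at least 0.54 in size, that of Tubb2b, the weakest of the 8 members that passed. The r of Tubb2a was matched in size by 0.34% of these genes over the 16 mice and by 5.59% within groups, and that of Tuba4a by 0.327% and 0.564%. Tuba1a at r = -0.48 (permutation test, adjusted p = 0.0636) and Tubb6 at r = -0.24 (permutation test, adjusted p = 0.37) did not pass. Hdac6 had the opposite sign, with r = 0.67 and rho = 0.68 (permutation test, p = 0.00543, adjusted p = 0.0109) and 0.74 within groups.

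**Figure D5:**
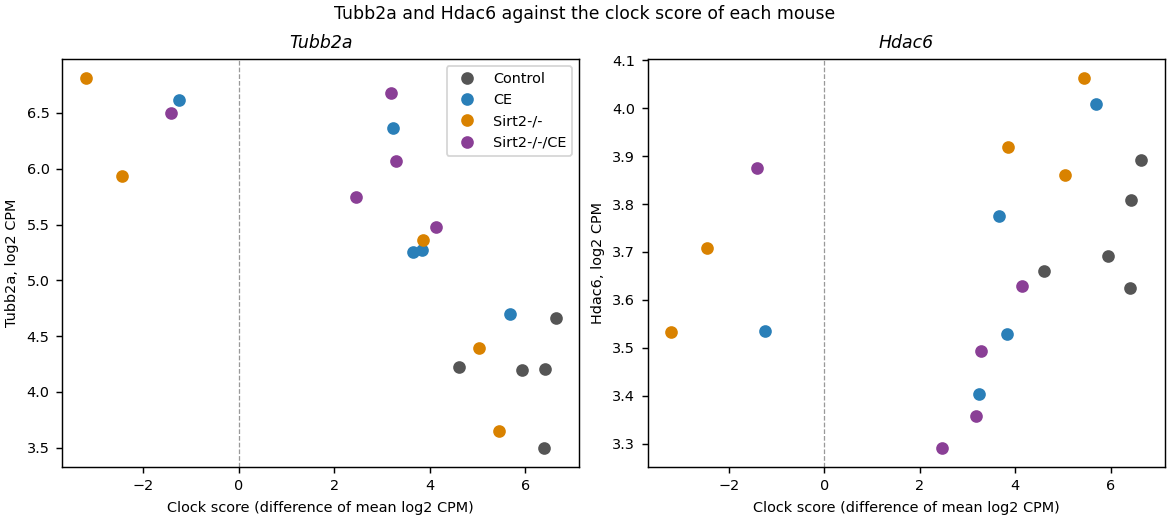
Log2 CPM (vertical axes) of Tubb2a and of Hdac6 against the clock score (horizontal axis, difference of mean log2 CPM), with 1 point per mouse coloured by group. Tubb2a falls and Hdac6 rises with the score among the 16 mice above 0, and the 4 mice below 0 stand apart.

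The group differences were refitted with the score in view. The score came from the same libraries and differed between groups, so a fit with it as a covariate also takes up part of the group differences. Leaving out the 4 mice left 3 Sirt2-/- mice and removed the 2 with the most Tubb2a, at 61.0 and 113 CPM. Whether the clock had a part in the group differences was not tested. With the score as a covariate, the Tubb2a log2 fold change in Sirt2-/- against Control mice was 0.11 (edgeR, adjusted p = 0.997), and with the 4 mice below 0 left out it was 0.44 (SE 0.39, adjusted p = 0.859). In CE against Control mice it was 0.80 (SE 0.33, unadjusted p = 0.0258, adjusted p = 0.375) with the covariate and 1.34 (SE 0.37, unadjusted p = 0.00206, adjusted p = 0.225) without the 4 mice. For the other members with an unadjusted p under 0.05 in Sirt2-/- against Control mice, leaving out the 4 mice gave 0.37 (SE 0.93, adjusted p = 0.957) for Tubb2b and 0.34 (SE 0.26, adjusted p = 0.822) for Tubb4b. The same refit in CE against Control mice gave 2.26 (SE 0.85, adjusted p = 0.328) for Tubb2b and 0.52 (SE 0.24, adjusted p = 0.401) for Tubb4b, and the covariate gave 1.43 and 0.39. In Sirt2-/- against Control mice the lowest values over all alternatives were 0.12 for Tubb2b and 0.21 for Tubb4b. The values of Tuba4a, Tuba1c and Tubb5 in Sirt2-/- against Control mice also came closer to 0, at 0.087, 0.15 and 0.21 with the covariate and 0.13, 0.17 and 0.29 without the 4 mice. Tubb2a in Sirt2-/-/CE against Sirt2-/- mice moved from 0.53 to 0.99 (unadjusted p = 0.00414, adjusted p = 0.472) with the covariate and to 1.41 (unadjusted p = 0.00504, adjusted p = 0.835) without the 4 mice. The covariate brought the interaction of Tubb2a from -1.10 to 0.19, and leaving out the 4 mice brought it to 0.06. Without the 4 mice, Hdac6 in Sirt2-/-/CE against Sirt2-/- mice was -0.52 (SE 0.16, unadjusted p = 0.00454, adjusted p = 0.835). Over all genes, the number called in Sirt2-/- against Control mice was 139 in the fit of all mice and 0 in both refits. Leaving out any 1 of the 20 mice gave 5 (without Control replicate 2 or Sirt2-/- replicate 14) to 375 (without Sirt2-/- replicate 13). edgeR called 0 clock genes of either arm. Of 3 genes of the rising arm, 3 were higher in Sirt2-/- against Control mice with an unadjusted p under 0.05 (Arntl, log2 fold change 3.25, adjusted p = 0.0769), and of 5 genes of the falling arm 0 passed (Dbp, -1.53, adjusted p = 0.488). At that threshold 2 of 3 genes of the rising arm were higher in CE against Control mice (Arntl, 3.06, adjusted p = 0.202) and 0 of 5 of the falling arm passed (Dbp, -1.57, adjusted p = 0.614).

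Other genes of the microtubule system are given by the number with an unadjusted p under 0.05 in the genotype comparison averaged over treatments, to be read against the 13.8% of all genes that passed it. edgeR called none of them there or elsewhere, other than Sirt2. Among other tubulins 11 were listed and 5 tested, and 3 were higher and 0 lower. Tuba8, an α-tubulin known from testis and muscle, had group means of 1.10, 2.78, 7.60 and 3.90 FPKM in Control, CE, Sirt2-/- and Sirt2-/-/CE mice. Its log2 fold change averaged over treatments was 1.52 (SE 0.43, adjusted p = 0.129). It was 2.59 (adjusted p = 0.0533) in Sirt2-/- against Control and 0.46 (adjusted p = 0.969) in Sirt2-/-/CE against CE mice. Tubd1, the δ-tubulin of centrioles, had 0.37 averaged over treatments (adjusted p = 0.321). Of 8 genes of the γ-tubulin ring complex, which nucleates microtubules, 0 were higher and 1 lower, with Mzt1 at -0.20 (adjusted p = 0.347) and Nedd1 at -0.38 (adjusted p = 0.396).

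Of 14 tested genes for enzymes that modify tubulin, 1 was higher and 1, Sirt2, lower. At the same threshold, 2 were higher and 1 lower in Sirt2-/- against Control mice, where 14.9% of all genes passed. In CE against Control mice 2 were higher and 2 lower, where 10.7% of all genes passed. Atat1 had group means of 3.01, 5.33, 4.95 and 5.15 FPKM in Control, CE, Sirt2-/- and Sirt2-/-/CE mice, and ranged from 1.24 to 7.26 FPKM over all mice. Among 23 genes for folding of tubulin and for autoregulation, 2 were higher and 0 lower. These were the chaperonin subunits Cct3 at 0.34 (adjusted p = 0.298) and Cct6a at 0.22 (adjusted p = 0.309). Microtubule-binding and severing proteins gave 1 higher and 1 lower of 20, with Map1s at 0.45 (adjusted p = 0.244) and Mtus1 at -0.33 (adjusted p = 0.328). Motor proteins gave 4 higher and 0 lower of 19, among them the dynein light chain Dynll1 at 0.70 (adjusted p = 0.204) and the dynactin subunit Dctn1 at 0.22 (adjusted p = 0.253).

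Relatives and partners of Hdac6 were counted in the same way. Of 10 other zinc-dependent histone deacetylases, 1 was higher, Hdac1 at 0.26 (unadjusted p = 0.00362, adjusted p = 0.163), and 0 were lower, with Hdac7 at 0.41 (adjusted p = 0.402). Of 10 substrates and partners of Hdac6, 1 was higher, the chaperone Hsp90aa1 at 0.76 (adjusted p = 0.204), and its constitutive paralogue Hsp90ab1 was at 0.32 (adjusted p = 0.436). Outside microtubules, 3 of 10 actin and intermediate filament genes were higher and 0 lower. The cytoplasmic actins Actg1 and Actb were at 1.27 (adjusted p = 0.185) and 0.64 (adjusted p = 0.247), and Actg1 ranged from 33.9 to 747 FPKM over the 20 mice. Each of these lists is described by counts, and none is called particular by them.

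Markers of other liver cells differed in some of these comparisons. The summed level of 6 endothelial markers was 15.3 to 75.7 FPKM in Control, 10.01 to 53.2 in CE, 33.1 to 83.8 in Sirt2-/- and 57.0 to 88.2 in Sirt2-/-/CE mice. All 6 were higher with an unadjusted p under 0.05 in the genotype comparison and in Sirt2-/-/CE against CE mice (median log2 fold change 1.25), and 0 in Sirt2-/- against Control mice. Of 7 Kupffer cell and monocyte markers 6 were in the table, and 4 were higher with an unadjusted p under 0.05 in the genotype comparison. Sums of the 6 were 68.7 to 179, 44.7 to 195, 129 to 194 and 141 to 207 FPKM in the same order of groups. All 6 markers of dividing cells, which use much tubulin, were higher in CE against Control mice with a median log2 fold change of 1.48, 2 of them with an unadjusted p under 0.05, and their sums were 0.995 to 2.85 FPKM in Control and 1.00 to 13.5 FPKM in CE mice. The median sum was 1.81 FPKM in Control and 2.13 FPKM in CE mice. In Sirt2-/- against Control mice all 6 were lower with a median of -0.998, 0 of them with an unadjusted p under 0.05. At that threshold 3 of 6 were lower in the averaged genotype comparison and in Sirt2-/-/CE against CE mice, and 4 of 6 higher in the averaged cold comparison. The part of these cells in the tubulin differences was not tested.

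The remaining markers were read in the genotype comparison averaged over treatments. Of 9 stellate cell markers 1 was higher at an unadjusted p under 0.05 (19.7 to 163 FPKM summed, over all mice), and of 6 hepatocyte markers 0 differed. Of 5 cholangiocyte markers 1, Spp1, was lower (13.7 to 51.7 FPKM summed). No marker of lymphocytes and neutrophils (6 tested of 8, with Ly6g at 0 in all mice, 1.09 to 12.2 FPKM summed), of mesothelium and smooth muscle (3 tested of 5, 1.92 to 12.6 FPKM) or of erythroid cells (5 tested, 179 to 1033 FPKM) differed. Of 9 markers of pancreas, muscle and adipose tissue, 5 were below 0.1 FPKM in every mouse, 3 of them at 0, and the 1 tested, Cela1, was lower. In CE and in Sirt2-/- against Control mice, the 6 tested markers of lymphocytes and neutrophils were all lower, with a median of -1.32 in CE and -0.83 in Sirt2-/- mice and 2 of 6 at an unadjusted p under 0.05 in each. At that threshold 2 of 9 stellate cell markers and 1 of 6 endothelial markers were lower in CE mice (medians -0.65 and -0.70), and 1 hepatocyte, 1 cholangiocyte and 1 erythroid marker and Cela1 were lower in Sirt2-/- mice. In Sirt2-/-/CE against CE mice, where 0 members passed that threshold, 4 of 6 Kupffer cell and monocyte markers, 3 of 9 stellate cell markers and 1 of 3 markers of mesothelium and smooth muscle were higher, and 2 of 5 cholangiocyte markers lower. The part of these cells in the tubulin differences was not tested either.

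For each member the gene outside the set with the most similar log2 CPM over 20 mice was found among 10581 genes of at least 1 FPKM, as a description. For Tubb2a this was Blcap (r = 0.88), for Tubb4b Ddc (0.85), for Tubb5 Twf2 (0.86) and for Tubb6 Zdhhc13 (0.84). Tuba1c and Tuba4a shared Hist2h3c2, a histone gene (0.91 and 0.92). The closest gene to Tuba1a was Fabp4 (0.80), to Tuba1b Akr1b3 (0.81), to Tubb2b Nelfa (0.75) and to Hdac6 Acot12 (0.72).

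Promoter sequence from RefSeq (GRCm38.p6) was at hand for 8 of the 10 members, all but Tubb2b and Tubb6. That of Tubb2a, the member with the widest range of log2 CPM among the abundant tubulins, is printed with a cyclic AMP response element (TGACGTCA) and a TATA box (TATAAA) in capitals, at chr13:34078009-34078258 on the minus strand.
Tubb2a: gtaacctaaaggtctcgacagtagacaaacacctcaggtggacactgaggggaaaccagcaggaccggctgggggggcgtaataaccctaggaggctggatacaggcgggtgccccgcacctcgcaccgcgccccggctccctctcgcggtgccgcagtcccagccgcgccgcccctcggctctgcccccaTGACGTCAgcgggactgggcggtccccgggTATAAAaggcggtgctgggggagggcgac
It has 22 CpG and 68.4% GC. The promoter of Tubb4b, at chr2:25224703-25224952 on the minus strand, is printed with its CCAAT boxes in capitals.
Tubb4b: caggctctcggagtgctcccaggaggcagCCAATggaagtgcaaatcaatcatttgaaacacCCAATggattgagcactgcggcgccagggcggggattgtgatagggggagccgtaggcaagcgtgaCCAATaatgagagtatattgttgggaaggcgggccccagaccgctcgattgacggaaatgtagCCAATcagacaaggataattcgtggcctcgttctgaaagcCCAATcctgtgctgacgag
Searched on both strands of all 27025 promoters of this length, TGACGTCA occurred in 1.62%, TATAAA in 12.97% and CCAAT in 34.5%. Tubb4b held 5 CCAAT matches, Tubb5 and Hdac6 2 each, and Tuba1a and Tuba1c 1 each. The E-box CACGTG (6.05% of promoters) was matched once, in Tubb5, and the clock-related motifs AGGTCA (13.8%) and TTATGTAA (0.862%) in no member. No match overlapped another, and these matches describe letters, not binding.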

How the data were processed

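Liver mRNA of 20 samples in 4 groups of 5 was enriched with oligo(dT), primed with random hexamers and sequenced on an Illumina NovaSeq instrument. The authors deposited a table of raw read counts per gene and FPKM values, which the authors normalized for length and library size. The submitters' processing notes name the build mm10. The aligner, the counting tool and strand setting, and the handling of reads that fit several genes are not given in the sources used here. Groups were taken from the labels. Of the deposited rows, 9 lines without a gene were left out.

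Counts of all genes were filtered (filterByExpr, minimum count 10, minimum total 15), scaled by TMM and fitted with edgeR 4.0.16 in R 4.3.3 over all 20 libraries with group as the term. Log2 CPM used a prior count of 2. SE was derived from the log2 fold change and its F value. FPKM served for levels between genes and isotype shares. Permutation tests (two-sided) used 100000 permutations. The same correlations were computed for all tested genes as a background. Reads without molecular identifiers are not independent molecules. The lowest chi-square per degree of freedom among 40 pairs of samples within groups was 77.4.

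Members and gene lists were chosen with earlier results of these data known. Named genes were all members, Sirt2, and from each other list those called (at most 6) or else the 2 with the lowest unadjusted p in the averaged genotype comparison. Alternatives were DESeq2 1.42.0, limma 3.58.1 voom with quality weights, other scalings and filters, fits of only the 2 groups compared, summed counts of near-identical genes, shares from counts per exon length, the clock score as a covariate, and leaving out each mouse. After the data were seen, the removal of each library's length and GC trend (14838 of 15616 genes, 95.0%, had values), the fit without the 4 mice with a clock score below 0 and the motif TGACGTCA were added. Scripts were tested on simulated data. Sequences came from the GRCm38 annotation and RefSeq.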

Additional observations from a re-analysis of the deposited data

Results flagged for a closer look

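In 44 groups of 5 mice (11 genes, Sirt2 included, in 4 groups), 3 held a log2 CPM value whose gap to its nearest neighbour exceeded 0.71 of the group's range. Chance flags about 1 in 20 groups. Tuba1a was at 4.59 CPM in Sirt2-/- replicate 13, against 11.9 CPM or more in the other 4 mice, and that mouse had the lowest value of its group for all 9 tubulins. Tuba1c was at 64.1 CPM in CE replicate 8, against 98.2 CPM or more in the other 4, and that mouse had the highest Hdac6 of its group. Sirt2 was at 27.5 CPM in Sirt2-/-/CE replicate 16, against 21.1 CPM or less in the other 4, and that mouse had the highest mean deviation of the tubulins.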

How the results depend on the processing

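No paired analysis was possible because the replicate numbers run from 1 to 20 and no 2 groups share one. Of 1400 log2 fold changes refitted without 1 mouse, 1349 kept their direction and side of the threshold, 50 reversed and 1 became called. Under the other alternatives, of 698 values 639 kept both, 52 reversed and 3 became called, and 4 values from counts summed over near-identical genes had another sign than the single gene. A fit on genes with at least 10 counts in every library gives no value for Tubb2b. Tubb2b had the largest SE of the members in each comparison, and the part of depth and of shared reads in it was not tested. Where a value changed, the cause was not tested.

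The share of all genes that passed the same threshold at the same setting stands in brackets after each count of members. Members called numbered 1 with DESeq2 in Sirt2-/- against Control (3.89%) and in CE against Control mice (1.2%), 1 with limma voom in CE against Control mice (3.46%), and 0 to 1 without 1 mouse in Sirt2-/- against Control mice, where 5 to 375 genes in all were called. Members with an unadjusted p under 0.05 numbered 3 in Sirt2-/- against Control mice (14.9%), 6 with scaling by library size only (19.5%, with the median of all genes at 0.16), 0 with the clock covariate (7.27%), 0 without the 4 mice with a clock score below 0 (7.92%), and 1 to 6 without 1 mouse (10.3% to 17.5%), with 1 without Sirt2-/- replicate 15 and 6 without replicate 13. In the averaged genotype comparison they numbered 2 with upper-quartile scaling (14.3%), 5 with library size only (20.4%, median of all genes 0.14), 0 with the clock covariate (7.86%), 0 without the 4 mice (9.95%), and 0 to 6 without 1 mouse (10.8% to 16.8%). In CE against Control mice there were 5 with limma voom (20.8%) and 1 with the clock covariate (10.8%). In Sirt2-/-/CE against Sirt2-/- mice there were 0 with upper-quartile scaling (7.06%), with only the 2 groups compared (4.73%) and with the length and GC trend removed (8.51%), 2 with limma voom (6.44%) and with the clock covariate (6.81%), 3 without the 4 mice (5.34%), and 0 to 2 without 1 mouse (3.83% to 8.97%). In the averaged cold comparison there were 5 with limma voom (14.1%), 6 without the 4 mice (10.2%), and 1 to 5 without 1 mouse (7.57% to 10.9%). In the interaction there was 1 with the length and GC trend removed (10.1%), 1 without the 4 mice (6.43%), and 0 to 3 without 1 mouse (6.14% to 10.5%).

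Shares from counts per exon length that moved by over 1 SD were, for Tuba4a, 19.6%, 17.3%, 18.8% and 17.4% in Control, CE, Sirt2-/- and Sirt2-/-/CE mice, for Tuba1c 20.1% in Control and 20.2% in Sirt2-/- mice, for Tuba1a 3.74% in Control mice and for Tuba1b 13.9% in Sirt2-/-/CE mice.

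Reversed log2 fold changes follow. With the clock covariate, Tuba1a was -0.13 and Tubb6 -0.0051 in Sirt2-/- against Control, Tubb2b 0.30 in Sirt2-/-/CE against CE, Tubb6 -0.028 and Hdac6 0.053 for genotype averaged, Tuba1a -0.11 and Hdac6 0.0039 in CE against Control, Tubb6 -0.0069 for cold averaged and Tuba1c 0.062, Tuba4a 0.069 and Tubb2a 0.19 for the interaction. Without the 4 mice, Tuba1a was -0.050 and Tubb6 -0.11 in Sirt2-/- against Control, Tubb2b 0.68, Tubb4b 0.058 and Tubb6 0.011 in Sirt2-/-/CE against CE, Tubb6 -0.049 for genotype averaged, Tuba1a -0.069 in CE against Control, Tubb6 0.22 in Sirt2-/-/CE against Sirt2-/- and Tuba1c 0.19, Tuba4a 0.076, Tubb2a 0.062, Tubb2b 0.31 and Tubb6 0.12 for the interaction. With library size only, Tuba1b was 0.046 in Sirt2-/- against Control, Tubb4b 0.075 and Tubb6 0.044 in Sirt2-/-/CE against CE, Hdac6 0.10 for genotype averaged, Tubb2b -0.14 and Tubb4b -0.026 in Sirt2-/-/CE against Sirt2-/- and Tubb6 -0.043 for cold averaged. With limma voom, Tuba1b was 0.027 in Sirt2-/- against Control, Tuba1b -0.082 and Tuba1c -0.099 in Sirt2-/-/CE against CE, Tuba1b -0.028, Tubb2b -0.16, Tubb6 -0.068 and Hdac6 0.044 for genotype averaged, Tuba1c -0.073 in Sirt2-/-/CE against Sirt2-/- and Tuba1b -0.11 for the interaction. With the length and GC trend removed, Tuba1b was -0.011 in Sirt2-/-/CE against CE, Tuba1b -0.055 and Tubb6 -0.044 for genotype averaged, Tubb2b -0.082 and Tubb4b -0.034 in Sirt2-/-/CE against Sirt2-/- and Tubb6 -0.036 for cold averaged. With upper-quartile scaling, Tubb2b was 0.0081, Tubb4b 0.025 and Tubb6 0.00085 in Sirt2-/-/CE against CE, Hdac6 0.011 for genotype averaged, Tubb2b -0.0040 in Sirt2-/-/CE against Sirt2-/- and Tubb6 -0.0019 for cold averaged.

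Values that reversed without 1 mouse ranged as follows. In Sirt2-/- against Control they were -0.093 to 0.26 for Tuba1a, -0.24 to 0.021 for Tuba1b and -0.0088 to 0.17 for Tubb6. In Sirt2-/-/CE against CE they were -0.46 to 0.44 for Tubb2b, -0.11 to 0.086 for Tubb4b and -0.15 to 0.046 for Tubb6. For genotype averaged they were -0.054 to 0.11 for Tuba1b, -0.024 to 0.077 for Tubb6 and -0.064 to 0.031 for Hdac6. In CE against Control they were -0.082 to 0.17 for Tuba1a. In Sirt2-/-/CE against Sirt2-/- they were -0.055 to 0.25 for Tuba1c, -0.41 to 0.87 for Tubb2b, -0.097 to 0.15 for Tubb4b, -0.046 to 0.27 for Tubb5 and -0.17 to 0.056 for Tubb6. For cold averaged they were -0.044 to 0.070 for Tubb6.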
